A study of Mus musculus with 5 samples.

Results

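The genes described here are the mitotic cyclins, their kinase Cdk1 and the factors that switch this kinase on, pass its signal on or transcribe it. They were chosen by symbol as Ccnb1, Ccnb2, Ccna2, Cdk1, Cdc20, Cdc25b, Cdc25c, Plk1, Foxm1 and Mybl2, and each symbol matched 1 Ensembl gene, giving 10 of the 49671 genes in the count table. All 10 passed the filter on low counts, which left 14880 genes for testing. The data were polyadenylated RNA counts from whole hearts of C57BL6/J mice on postnatal day 2 (PN2). Charme WT hearts came as 3 pools of 9 hearts each. Charme KO hearts, from mice in which a polyadenylation signal inserted into the Charme locus cuts short the Charme long noncoding RNA, came as 2 pools of 3 hearts each. Each pool joined hearts of littermates of 1 genotype, and males and females were taken at random. The number of hearts per pool went with the genotype, so the effect of pool size and that of genotype cannot be told apart. The animals carry the insertion in every cell, and the sources used here give no other allele or treatment. The comparison asks how the level of each of these genes in the neonatal heart differed when Charme was reduced.

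Entry into mitosis is driven by the kinase CDK1 bound to a cyclin. Cyclin A acts from S phase into early mitosis and the B cyclins act through mitosis itself, and the bound kinase stays inactive until CDC25 phosphatases remove inhibitory phosphates from it. PLK1 helps to start this activation, and exit follows when the anaphase-promoting complex, carrying its activator CDC20, marks the cyclins for destruction. Most of the genes themselves are transcribed late in the cell cycle under FOXM1, B-MYB (the product of Mybl2) and the MuvB complex. The known binding elements of this route are the CCAAT box, read by NF-Y, and the cell cycle genes homology region (CHR). In the mouse heart, cardiomyocytes still divide in the first days after birth and then largely leave the cell cycle.

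The 5 pools held between 16721055 and 21646378 counts in genes. Charme itself stood at 39.3, 10.4 and 14.0 CPM (counts scaled to a common library size) in Charme WT pools 1, 2 and 3 and at 4.04 and 3.54 CPM in Charme KO pools 1 and 2, so both knockout pools lay below every wild-type pool (log2 fold change −2.49, SE 0.549, adjusted p = 0.0763, from the quasi-likelihood test of edgeR and the Benjamini-Hochberg method). All 10 cardiomyocyte markers were detected, with a summed level of 55197 to 67788.5 CPM in Charme WT and of 66246.5 and 60479.4 CPM in Charme KO. None was called. Myh6 (log2 fold change −0.65, adjusted p = 0.378) and Actn2 (−0.29, adjusted p = 0.540) had both Charme KO pools below every Charme WT pool. Myh7 (0.68, adjusted p = 0.335) had both above, and the others overlapped. Both Charme KO pools stood apart in other ways. Mitochondrial transcripts took 21.1% of counts in Charme KO pool 1, and from 9.68% to 11.1% elsewhere. Of 7 salivary gland markers, 5 passed the filter and were called higher. Together the 7 summed to 24795 CPM in Charme KO pool 2 (2.56% of counts) and 326 CPM in pool 1 (0.0276%), against 0.0486 to 0.101 CPM in Charme WT. All 10 erythroid markers had counts. They summed to 876 to 1261 CPM in Charme WT and to 2305 and 1628 CPM in Charme KO, and 3 of the 8 tested were called higher (Hba-a1, Hba-a2 and Hbb-bt). The 6 fibroblast markers summed to 2488 to 2947 CPM in Charme WT and to 3173 and 3599 CPM in Charme KO, with none called. The summed endothelial markers (883 to 1135 against 817 and 934 CPM) and macrophage markers (79.9 to 145 against 101 and 177 CPM) had overlapping ranges in the groups, and no gene of either list was called. The thymus lies next to the neonatal heart, and of 12 thymocyte markers Rag2 was at 0 in every pool, 2 were tested and none was called, and their sum was 1.19 to 3.54 CPM in Charme WT and 0.992 and 2.33 CPM in Charme KO. In whole hearts, fewer cells of a type and less RNA per cell cannot be told apart.

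The stretch just before the transcription start is printed for 7 of the genes, because CCAAT and CHR elements there are the known route of transcription for much of this group. The printed bases of Cdk1 and Cdc20 hold both sets of letters searched for, and those of Mybl2 hold neither. Of these letters, the printed bases of Ccnb1, Ccnb2, Plk1 and Cdc25b hold CCAAT alone. Other spellings of the CHR were not searched for, so a stretch without these letters is not shown to lack the element. The sequences are from RefSeq on GRCm38.p6 and give the 150 bases before the annotated start, 5′ to 3′ on the gene's own strand, with CCAAT and the CHR letters TTTGAA or TTCGAA in capitals (ATTGG is CCAAT on the opposite strand). For Ccnb1, Cdk1 and Cdc20 the GENCODE gene model begins within the printed stretch. The coordinates are chr13:100786487-100786636 on the minus strand for Ccnb1, chr9:70421555-70421704 on the minus strand for Ccnb2, chr10:69352913-69353062 on the minus strand for Cdk1, chr4:118437344-118437493 on the minus strand for Cdc20, chr7:122159285-122159434 on the plus strand for Plk1, chr2:131186798-131186947 on the plus strand for Cdc25b and chr2:163054485-163054634 on the plus strand for Mybl2. Ccna2, Foxm1 and Cdc25c are named only.
Ccnb1: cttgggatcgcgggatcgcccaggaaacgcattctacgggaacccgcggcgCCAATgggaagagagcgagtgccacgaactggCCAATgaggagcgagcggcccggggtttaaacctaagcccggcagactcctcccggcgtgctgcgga
Ccnb2: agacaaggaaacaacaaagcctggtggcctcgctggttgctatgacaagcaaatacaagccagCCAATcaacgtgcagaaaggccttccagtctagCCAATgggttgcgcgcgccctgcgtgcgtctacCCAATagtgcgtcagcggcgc
Cdk1: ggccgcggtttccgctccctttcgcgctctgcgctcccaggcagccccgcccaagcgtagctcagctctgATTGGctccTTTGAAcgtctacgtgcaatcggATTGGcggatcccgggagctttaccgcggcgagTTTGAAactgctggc
Cdc20: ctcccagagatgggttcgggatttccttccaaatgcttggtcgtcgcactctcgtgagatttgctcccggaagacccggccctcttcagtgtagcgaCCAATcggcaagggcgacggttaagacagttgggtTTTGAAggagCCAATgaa
Plk1: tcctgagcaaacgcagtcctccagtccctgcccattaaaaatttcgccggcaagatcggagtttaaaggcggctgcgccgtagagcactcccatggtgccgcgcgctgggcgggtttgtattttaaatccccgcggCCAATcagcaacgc
Cdc25b: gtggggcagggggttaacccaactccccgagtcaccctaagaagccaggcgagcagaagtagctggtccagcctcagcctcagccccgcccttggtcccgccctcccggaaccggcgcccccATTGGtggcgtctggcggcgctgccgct
Mybl2: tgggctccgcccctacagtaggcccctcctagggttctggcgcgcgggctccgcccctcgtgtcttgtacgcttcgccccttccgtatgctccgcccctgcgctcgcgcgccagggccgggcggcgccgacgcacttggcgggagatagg

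Both strands of each whole window, from 250 bases before to 50 bases after the start, were searched for these letters. The CCAAT and CHR letters can share a base, but no such overlap occurred in these 7 windows. CCAAT was found in 6 of the 7 windows and occurred at least 2 times in 4 of them, those of Ccnb1, Ccnb2, Cdk1 and Cdc20. Among 32851 RefSeq promoter windows of the same length, 37.4% held CCAAT and 11.7% held it at least 2 times. CHR letters were found in 5 of the 7 windows, and the same 5 held both elements, against 19.2% and 7.52% of all windows. In the printed stretch of Cdk1, TTTGAA lies 4 bases after a CCAAT on the opposite strand and again just before the start, and Cdc20 carries TTTGAA between its CCAAT letters. The window of Mybl2 held neither set of letters. A match describes the letters and does not show that a factor binds there.

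Of the 10 genes, 5 were called higher in Charme KO hearts: Ccnb1, Ccna2, Cdk1, Cdc25c and Ccnb2. A gene was called when its adjusted p was under 0.1 and its mean level reached 1 fragment per kilobase of exon, scaled to library size (FPKM, a level per length that allows genes to be compared) in at least 1 genotype. Across all 14880 genes tested, 227 (1.53%) were called higher and 78 (0.524%) lower. In 9 of the 10 genes both knockout pools exceeded all 3 wild-type pools, an arrangement found in 17.8% of all genes tested. The median log2 fold change of the 10 was 1.09, against 0.02 over all genes, and the values ran from 0.22 for Mybl2 to 1.91 for Ccnb1. The likelihood ratio test of edgeR and the test of DESeq2 each called 7 of the 10, adding Cdc20 and Plk1, on a background of 3.92% and 4.33% of genes called higher. All 10 genes were chosen with earlier results of these data known, so these counts give no independent support for their direction. Ccnb1 and Ccna2 had also been picked by the study from these same pools for measurement by another method, so their rise here is not independent of that choice either. The summed erythroid markers moved with genotype, and so did the fibroblast sum, though among its genes Postn alone was apart. The mitochondrial and salivary gland counts and the base composition of the transcripts moved with genotype or with 1 Charme KO pool. Apart from the fits given below, the part of all these in the differences was not tested. Without the mitochondrial and salivary gland genes in the fit, 5 of the 10 were called, where 314 of all 14856 genes tested were. This fit only drops the rows of those genes. It cannot show what the material they mark added to the counts of the 10, which was not tested.

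**Figure D1:**
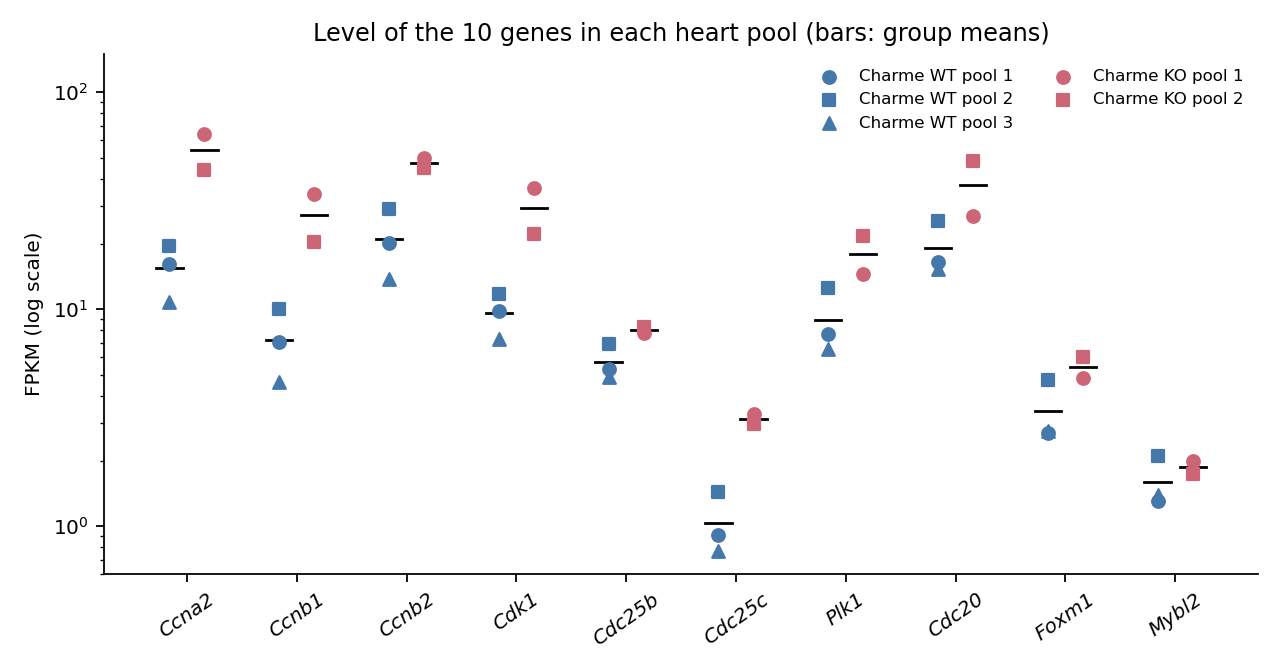
Level of each gene (FPKM, log scale) in the 3 Charme WT pools (blue) and the 2 Charme KO pools (red), with group means as black bars. Both Charme KO pools sit above all Charme WT pools for every gene but Mybl2, and Charme WT pool 2 is the highest Charme WT pool for all 10 genes.

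Ccna2 (ENSMUSG00000027715, minus strand of chr3:36564865-36572150, GRCm38) encodes cyclin A2, the cyclin that carries the cell from DNA replication to the start of mitosis. Its level was 16.2, 19.5 and 10.8 FPKM in Charme WT pools 1, 2 and 3 and 64.2 and 43.7 FPKM in Charme KO pools 1 and 2. The lower Charme KO pool was well above the highest Charme WT pool. The mean was 15.5 ± 4.39 FPKM in Charme WT (SD, n = 3, as for each mean below) and rose to 53.9 ± 14.5 FPKM in Charme KO (SD, n = 2), which was 1.80 on the log2 scale (SE 0.259, adjusted p = 0.0336), or 3.48-fold.

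Ccnb1 (ENSMUSG00000041431, minus strand of chr13:100778650-100786570) encodes cyclin B1, the main partner of CDK1 in mitosis, and changed most of the 10. It stood at 7.04, 10 and 4.62 FPKM in the Charme WT pools and at 34.0 and 20.3 FPKM in the Charme KO pools. The groups did not overlap, and the first Charme KO pool held 1.67 times the level of the second in CPM. The mean rose from 7.22 ± 2.70 to 27.1 ± 9.65 FPKM, a log2 fold change of 1.91 (SE 0.313, adjusted p = 0.0390), or 3.76-fold. Of the 31-base words of its exons, 27.7% also occur in other annotated genes, chiefly processed pseudogenes. The most similar of these, Ccnb1-ps, received 2, 10 and 0 counts in the wild-type pools and 2 and 5 in the knockout pools, where Ccnb1 itself had 611, 745 and 385 and then 2022 and 1912 counts.

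Ccnb2 (ENSMUSG00000032218, minus strand of chr9:70407692-70421547) encodes cyclin B2, the second mitotic B-type cyclin. Its level was 20.3, 28.9 and 13.8 FPKM in Charme WT and 49.6 and 44.7 FPKM in Charme KO. The groups were apart here too, with the 2 Charme KO pools close to each other. The mean rose from 21.0 ± 7.56 to 47.1 ± 3.41 FPKM, a log2 fold change of 1.17 (SE 0.270, adjusted p = 0.0868), or 2.25-fold. This call was the closest to the threshold among the 5 and was lost in the fit corrected for transcript length and GC content (log2 fold change 0.95, adjusted p = 0.116).

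Cdk1 (ENSMUSG00000019942, minus strand of chr10:69335146-69352938) encodes the catalytic subunit that these cyclins activate. It was measured at 9.84, 11.7 and 7.32 FPKM in Charme WT and at 36.1 and 22.2 FPKM in Charme KO. Both Charme KO pools lay above the Charme WT range, and as for Ccnb1 and Ccna2 the first of them was the higher. The mean rose from 9.63 ± 2.22 to 29.2 ± 9.87 FPKM, a log2 fold change of 1.60 (SE 0.253, adjusted p = 0.0390), or 3.03-fold. The kinase and the 3 cyclins were thus all called higher.

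The CDC25 phosphatases differed from each other. Cdc25c (ENSMUSG00000044201, minus strand of chr18:34732993-34751533), whose product acts on CDK1 with cyclin B at the entry into mitosis, had the lowest Charme WT level of the 10 genes. It stood at 0.908, 1.44 and 0.771 FPKM in Charme WT, from 92, 125 and 75 counts, and at 3.30 and 2.94 FPKM in Charme KO, from 229 and 323 counts. The groups did not overlap, and the 2 Charme KO pools were close. The mean rose from 1.04 ± 0.352 to 3.12 ± 0.251 FPKM, a log2 fold change of 1.59 (SE 0.296, adjusted p = 0.0488), or 3.01-fold. Cdc25b (ENSMUSG00000027330, plus strand of chr2:131186949-131198497) encodes the phosphatase that acts before CDC25C, at the end of G2. Its level was 5.29, 6.91 and 4.86 FPKM in Charme WT and 7.81 and 8.32 FPKM in Charme KO. The second Charme WT pool came close to the lower Charme KO pool, and the mean of 5.68 ± 1.08 against 8.07 ± 0.361 FPKM (log2 fold change 0.51, SE 0.215, adjusted p = 0.253) did not pass the test.

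Plk1 (ENSMUSG00000030867, plus strand of chr7:122159439-122169873) encodes the polo-like kinase that activates CDC25C and acts on centrosomes and kinetochores. It stood at 7.73, 12.5 and 6.53 FPKM in Charme WT and at 14.5 and 21.7 FPKM in Charme KO. Here the second Charme KO pool was the higher, and the first lay only a little above Charme WT pool 2. The means were 8.93 ± 3.18 and 18.1 ± 5.09 FPKM (log2 fold change 1.02, SE 0.293, adjusted p = 0.144), which did not pass the test. It did pass without Charme KO pool 1 (1.28, adjusted p = 0.0215), without Charme WT pool 2 (1.34, adjusted p = 0.0769) and when length and GC content were corrected for (1.04, adjusted p = 0.0886). It did not pass without Charme KO pool 2 (0.69, adjusted p = 0.110), Charme WT pool 1 (0.93, adjusted p = 0.289) or Charme WT pool 3 (0.84, adjusted p = 0.540). Where 1 Charme KO pool was left, it was assumed to vary as the other pools do. Of its exon words, 14.8% occur in the pseudogene Plk-ps1, which had no count in any pool.

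Cdc20 (ENSMUSG00000006398, minus strand of chr4:118432901-118437352) encodes the activator of the anaphase-promoting complex. Its level was 16.5, 25.6 and 15.3 FPKM in Charme WT and 26.9 and 48.2 FPKM in Charme KO. The first Charme KO pool was almost level with Charme WT pool 2, and the second was far above all the others. The means were 19.1 ± 5.65 and 37.5 ± 15.1 FPKM (log2 fold change 0.98, SE 0.288, adjusted p = 0.150), which did not pass the test. The log2 fold change was 1.34 (adjusted p = 0.00693) without Charme KO pool 1 and 0.49 (adjusted p = 0.184) without Charme KO pool 2, on the same assumption for the remaining pool. Of its exon words, 25.5% occur in other genes, chiefly the pseudogene Gm7856, which had at most 1 count in a pool.

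The transcription factors of the group showed the smallest differences together with Cdc25b. Foxm1 (ENSMUSG00000001517, plus strand of chr6:128362967-128376146) encodes a forkhead factor that transcribes G2 and mitotic genes. It was at 2.70, 4.70 and 2.73 FPKM in Charme WT and at 4.81 and 6.01 FPKM in Charme KO. The Charme KO pools were above the Charme WT range by a narrow margin at pool 2, and the means of 3.38 ± 1.15 and 5.41 ± 0.843 FPKM (log2 fold change 0.68, SE 0.272, adjusted p = 0.234) did not pass the test. Its exons overlap those of Tex52 on the same strand, which had at most 2 counts in a pool. Mybl2 (ENSMUSG00000017861, plus strand of chr2:163054687-163084688) encodes B-MYB, which joins the MuvB complex in S phase. Its level was 1.31, 2.10 and 1.39 FPKM in Charme WT and 2.0 and 1.73 FPKM in Charme KO. Both Charme KO pools fell within the Charme WT range, and Mybl2 was the only gene of the 10 whose groups overlapped (means 1.60 ± 0.436 and 1.87 ± 0.192 FPKM, log2 fold change 0.22, SE 0.288, adjusted p = 0.696). Of the 4627 exon words of Mybl2, 21.0% occur in other genes. Gm3320, whose counts are not given here, shares the most. Some of the others had more counts than Mybl2 itself. Tmem234, which shares 192 of the words, had 1297 to 2427 counts over the pools beside 125 to 179 for Mybl2. How far shared words affect its level was not tested. A missed threshold does not show that Foxm1 or Mybl2 was equal in both genotypes.

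**Figure D2:**
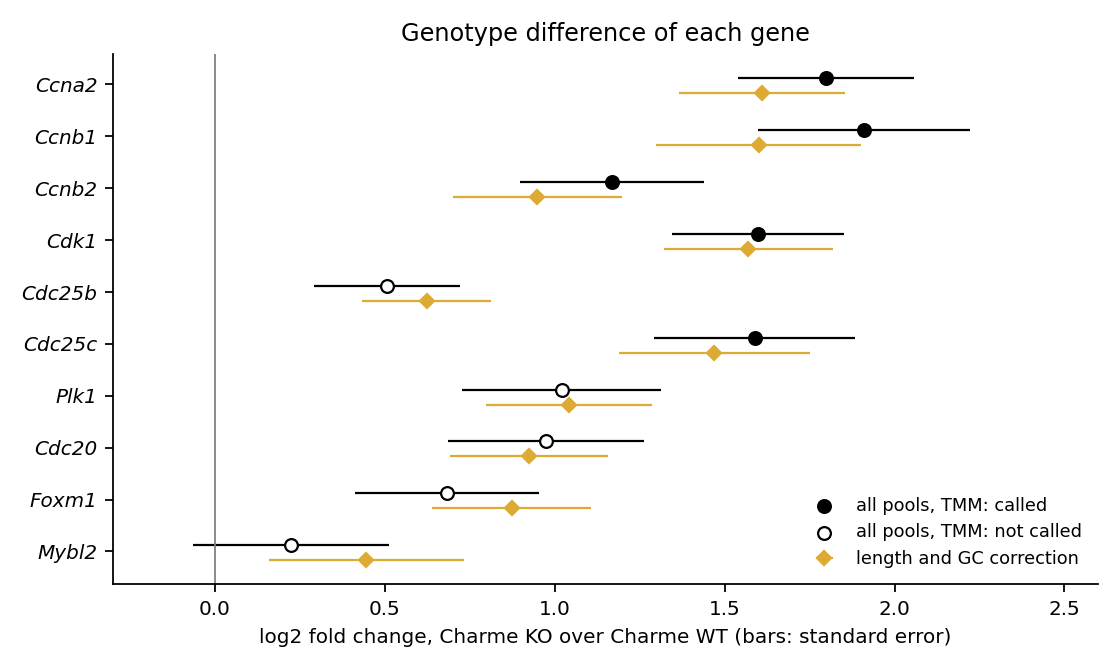
Log2 fold change of each gene, Charme KO over Charme WT, with its standard error as a horizontal bar. Black points are from the fit on all 5 pools (filled where called) and diamonds are from the fit corrected for transcript length and GC content. Ccnb1 and Ccna2 had the largest values (1.91 and 1.80), and Mybl2 the smallest (0.22).

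The spread among the Charme WT pools was similar for these genes. Charme WT pool 2 had the highest level for all 10 of them, and the highest pool exceeded the lowest by 1.42 times for Cdc25b up to 2.17 times for Ccnb1. The 2 Charme KO pools did not show a common order. The level in CPM in Charme KO pool 1 over that in pool 2 was 1.67 for Ccnb1, 1.63 for Cdk1 and 1.47 for Ccna2, with smaller excesses for Mybl2 (1.16), Cdc25c (1.12) and Ccnb2 (1.11). The other genes were lower in pool 1, with ratios of 0.939 for Cdc25b, 0.801 for Foxm1, 0.668 for Plk1 and 0.558 for Cdc20. Cdc20 and Cdk1 therefore differed in opposite directions between the knockout pools.

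Ratios within a pool compare paired genes without the library size. Cyclin B1 over cyclin B2, in FPKM, was 0.347, 0.346 and 0.334 in Charme WT and 0.685 and 0.454 in Charme KO. The Charme WT pools were nearly equal while the absolute levels of both genes varied among them, and both Charme KO pools were higher. Cdc25c over Cdc25b was 0.172, 0.208 and 0.159 in Charme WT and 0.422 and 0.354 in Charme KO, again without overlap. Foxm1 over Mybl2 was 2.06, 2.24 and 1.97 in Charme WT and 2.40 and 3.47 in Charme KO. The mean log2 ratio was higher in Charme KO by 0.70, 1.12 and 0.47 in turn, and the 2-sided exact permutation p was 0.1 for each of the 3 ratios, also after Benjamini-Hochberg adjustment over them. With 3 pools against 2 there are 10 assignments and 0.1 is the smallest p they allow.

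By mean FPKM in Charme WT the order was Ccnb2, Cdc20, Ccna2, Cdk1, Plk1, Ccnb1, Cdc25b, Foxm1, Mybl2 and Cdc25c. The ranges over the 3 pools overlapped between all neighbours in this order except from Cdc25b to Foxm1 and from Foxm1 to Mybl2. In Charme KO the order by mean FPKM was Ccna2, Ccnb2, Cdc20, Cdk1, Ccnb1, Plk1, Cdc25b, Foxm1, Cdc25c and Mybl2. By these means cyclin A2 moved from rank 3 to rank 1, and Mybl2 took the last place from Cdc25c. The first rank of Ccna2 rested on Charme KO pool 1, with 64.2 FPKM against 49.6 for Ccnb2 and 26.9 for Cdc20. In Charme KO pool 2, Ccna2 (43.7 FPKM) was below both Cdc20 (48.2) and Ccnb2 (44.7).

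The called and uncalled genes differed in base composition. GC content over the annotated exons was 44.1% to 49.3% for the 5 called genes (44.1% for Ccnb1, 46.4% for Ccna2, 46.9% for Cdc25c, 48.7% for Cdk1 and 49.3% for Ccnb2) and 54.2% to 56.1% for the 5 that were not called. Genes in general moved with GC content in Charme KO pool 1. There the median log2 ratio to the Charme WT mean was 0.54 for genes under 44% GC and −0.42 for genes over 53%, whereas in Charme KO pool 2 the same medians were 0.03 and −0.03. The share of genes called higher fell from 3.37% in the lowest of the 5 GC classes to 0.913% in the highest.

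In Charme KO pool 2, where this slope was near 0, the log2 ratio to the Charme WT mean was 1.49 for Ccnb1, 1.49 for Ccna2, 1.50 for Cdc25c, 1.20 for Cdk1 and 1.09 for Ccnb2. The GC-rich genes spread more widely in that pool, with 1.33 for Cdc20, 1.28 for Plk1, 0.83 for Foxm1, 0.55 for Cdc25b and 0.11 for Mybl2. In Charme KO pool 1 the 5 GC-rich genes were all between 0.32 (Mybl2) and 0.70 (Plk1), above the −0.42 of their GC class, and the others were between 1.24 (Ccnb2) and 2.23 (Ccnb1). When the counts were corrected for transcript length and GC content in each pool, 5 genes were called, with Plk1 gained and Ccnb2 lost. Over all 14880 genes tested, this fit called 230 higher and 125 lower. For 9 of the 10 both knockout pools still exceeded all 3 wild-type pools. The 17.8% of all genes given above for this arrangement is from uncorrected levels, and no such share is given after the correction. The corrected log2 fold changes of the other called genes were 1.60 for Ccnb1 (adjusted p = 0.0557), 1.61 for Ccna2 (adjusted p = 0.0432), 1.57 for Cdk1 (adjusted p = 0.0460) and 1.47 for Cdc25c (adjusted p = 0.0569). After the correction, the log2 ratio to the Charme WT mean in Charme KO pools 1 and 2 was 1.81 and 1.34 for Ccnb1 and 1.0 and 0.90 for Ccnb2. It was 1.50 and 1.43 for Cdc25c and 0.76 and 0.48 for Cdc25b, so in both pairs the first gene remained higher in both Charme KO pools.

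**Figure D3:**
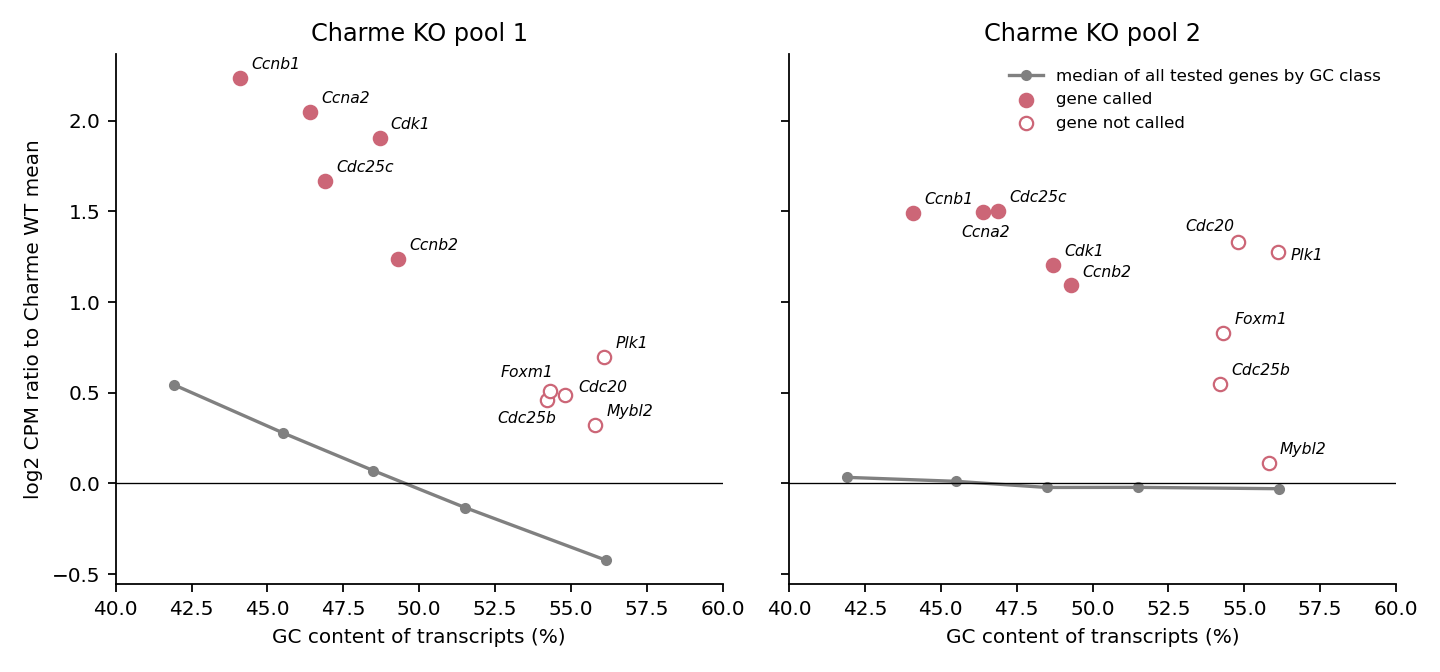
Log2 CPM ratio of each gene to the Charme WT mean against the GC content of its transcripts, for Charme KO pool 1 (left) and pool 2 (right), with called genes filled. The grey line is the median of all tested genes with a mean of at least 1 CPM in 5 GC classes, which falls from 0.54 to −0.42 in pool 1 and stays between −0.03 and 0.03 in pool 2.

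Of 26 further activators, inhibitors and adaptors of CDK1, 24 were tested, 2 were called higher and none lower (1.53% and 0.524% of all genes), and 20 had a positive log2 fold change. The likelihood ratio test called 7 higher and 1 lower, and DESeq2 9 higher and 1 lower. Over all 14880 genes these tests called 3.92% and 4.33% higher, and 349 and 477 genes lower. The median of the 24 was 0.42. Both knockout pools exceeded all 3 wild-type pools for 10 and were below them for 1, where 17.8% and 18.2% of all genes did so. The genes called were Cks2, a small subunit that binds CDK1 and its substrates, and Mastl, the Greatwall kinase that restrains the phosphatase opposing CDK1. Cks2 rose from 31.4 ± 8.17 to 93.8 ± 31.7 FPKM (log2 fold change 1.58, adjusted p = 0.0408), and Mastl from 1.08 ± 0.0424 to 3.78 ± 1.71 FPKM (1.79, adjusted p = 0.0390). The most abundant genes of this list were Cks2 and Cdkn1c, an inhibitor of cyclin-dependent kinases, which was at 55.9, 56.8 and 46.8 FPKM in Charme WT and 68.9 and 117 FPKM in Charme KO and did not pass the test (0.81, adjusted p = 0.140).

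The anaphase-promoting complex ends the action of the cyclins. Its 18 subunits and regulators were all tested, 1 was called higher and none lower (1.53% and 0.524% of all genes), and the median log2 fold change was 0.27. The likelihood ratio test and DESeq2 each called 3, all higher, where they called 3.92% and 4.33% of all genes higher. Both knockout pools exceeded all 3 wild-type pools for 8 and were below them for 2, where 17.8% and 18.2% of all genes did so. The gene called was Ube2c, the enzyme that starts ubiquitin chains on cyclin B. It was at 16.5, 26.8 and 12.0 FPKM in Charme WT and 43.1 and 43.7 FPKM in Charme KO (log2 fold change 1.24, adjusted p = 0.0856). The most abundant members, the subunits Anapc5 (0.34, adjusted p = 0.341) and Anapc13 (0.09, adjusted p = 0.815), did not pass the test.

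A further list held transcriptional regulators of the cell cycle, among them subunits of MuvB, which reads CHR elements, and of NF-Y, which reads CCAAT. Of these 24 MuvB, MYB family, E2F, pocket protein and NF-Y genes with Trp53, 24 were tested and edgeR's quasi-likelihood test called 0, with 2 at an unadjusted p under 0.05. Over all 14880 genes it called 1.53% higher and 0.524% lower, and 2767 had an unadjusted p under 0.05. The likelihood ratio test called 0 as well, where it called 933 of all 14880 genes. DESeq2 called 1, lower in Charme KO, where it called 477 of all genes lower. The median log2 fold change was 0.20, with 16 genes above 0 and 8 below. Both knockout pools exceeded all 3 wild-type pools for 3 genes and were below them for 3, where 17.8% and 18.2% of all genes did so. The most abundant of them, the MuvB subunit Rbbp4 (0.31, adjusted p = 0.390) and the NF-Y subunit Nfyc (0.18, adjusted p = 0.583), did not pass the test.

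A list of 37 other mitotic genes covered the spindle, kinetochores, checkpoint and cytokinesis. All 37 were tested, 30 were called higher and none lower (1.53% and 0.524% of all genes), and the median log2 fold change was 1.46. For 36 of them both knockout pools exceeded all 3 wild-type pools, where 17.8% of all genes did so. The largest called rises were those of Hmmr, a spindle protein (2.12, adjusted p = 0.0450), and the kinetochore protein gene Cenpf (2.04, adjusted p = 0.0390). The most abundant were Cdca3, a trigger of mitotic entry (1.46, adjusted p = 0.0494), and Top2a, the topoisomerase that untangles chromosomes (1.64, adjusted p = 0.0488). This list was drawn up with earlier results of these data known and gives no independent support for its direction.

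**Figure D4:**
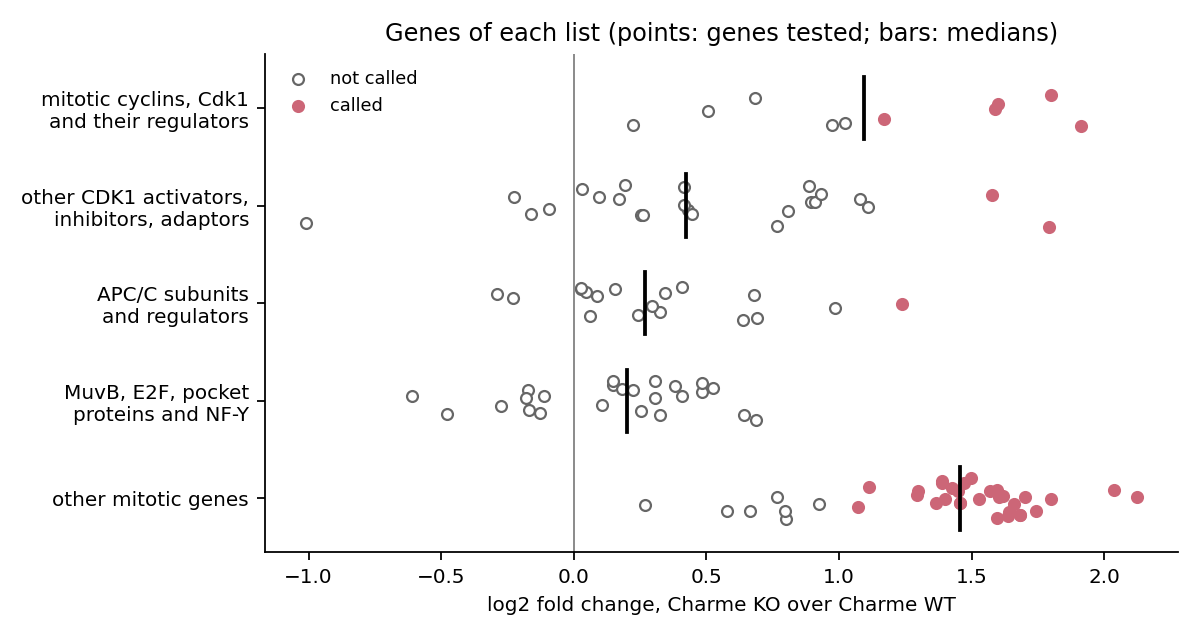
Log2 fold change, Charme KO over Charme WT, of every tested gene of the 5 lists, with called genes filled and medians as black bars. The medians are 1.09 for the mitotic cyclins, Cdk1 and their regulators, 0.42 for other CDK1 activators, inhibitors and adaptors, 0.27 for the anaphase-promoting complex (APC/C), 0.20 for the transcription factors and 1.46 for other mitotic genes.

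The genes whose pattern over the 5 pools was most like the mean pattern of the 10 were found by the root mean square difference of their centred log2 CPM. The closest was Spag5, a spindle protein (difference 0.0594, log2 fold change 1.12, adjusted p = 0.0742), followed by the kinase gene Aurka (0.0871), Cdca2 (0.0931), the tubulin gene Tuba1c (0.105) and the centrosome kinase gene Nek2 (0.110). Of these, Tuba1c (log2 fold change 1.05, adjusted p = 0.0801) and Nek2 (1.30, adjusted p = 0.0697) were also called higher. Aurka (1.11, adjusted p = 0.100025) lay just outside the threshold and Cdca2 (1.01, adjusted p = 0.121) outside it. All 5 were picked on these same values, so their rise follows from that choice and gives no support for the rise of the 10.

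The calls depended on Charme WT pools 1 and 3. Without Charme WT pool 1 or without pool 3, none of the 10 genes was called in edgeR's quasi-likelihood test, and 7 of them had an unadjusted p under 0.05 in each case. Over all genes, 2190 of 14597 and 1315 of 14715 tested had an unadjusted p under 0.05 in these fits. Of the same genes 2 and 0 were called, so the loss of calls was not particular to the 10. For Ccnb1 the adjusted p was then 0.167 and 0.237 at log2 fold changes of 1.89 and 1.67. Without Charme WT pool 2, 6 of the 10 were called, where 187 of all 14751 genes tested were. No gene changed direction when any pool was left out, and the lowest log2 fold change reached was 1.50 for Ccnb1, 1.50 for Ccna2, 1.21 for Cdk1, 1.41 for Cdc25c and 0.94 for Ccnb2.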

How the data were processed

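RNA was sequenced from 5 pools of PN2 hearts, 3 Charme WT and 2 Charme KO. As the study's methods describe, the authors trimmed reads with Cutadapt and Trimmomatic, dropped reads under 35 nt, aligned to GRCm38 with STAR and took reverse-strand gene counts with an Ensembl annotation. The raw counts as deposited were used. The deposited FPKM table was not used, and FPKM was computed from the counts, the TMM library sizes and GENCODE M21 exon lengths.

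Genes that reached 10 counts in 2 or more pools were tested in edgeR 4.0.16 (R 4.3.3, limma 3.58.1) with TMM, the quasi-likelihood test without covariates and Benjamini-Hochberg adjusted p-values over the whole set of tested genes. A call needed an adjusted p under 0.1 and a mean of at least 1 FPKM in a genotype. The standard error is the log2 fold change divided by the root of F. The fit was tested on simulated data. The study's own likelihood ratio test and DESeq2 1.42.0 were alternatives, as were other scalings and filters, a replicate block, a spline correction for length and GC content (4 degrees of freedom each) and each pool left out.

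The 10 genes and all lists were chosen with earlier results of these data known. Of each other list, called genes were named if 5 or fewer, otherwise the 2 highest rises and the 2 deepest falls among them, and also the 2 most abundant genes. The 5 genes most alike in pattern were named too. Hba-a1, Hba-a2, Hbb-bt, Rag2, Postn, Myh6, Myh7 and Actn2 are marker genes named outside this rule, after their values were seen. Words of 31 bases shared between genes were counted in GENCODE M21 transcripts.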

Additional observations from a re-analysis of the deposited data

How the results depend on the processing

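All 10 genes were higher in Charme KO under every alternative run. The replicate block with the length and GC correction called 3 of the 10 genes (5 with all pools and no covariates), 15 of the 37 other mitotic genes (30), 0 other CDK1 regulators (2), 0 anaphase-promoting complex genes (1) and 131 genes in all (305). The likelihood ratio test and DESeq2 called 933 and 1122 genes in all, 8 and 10 CDK1 regulators and 3 and 3 genes of the complex, and DESeq2 called 1 transcription factor gene. An adjusted p under 0.05 left 111 genes and 0 of the complex. The length and GC correction called 355 genes in all, 4 CDK1 regulators and 2 genes of the complex. Leaving out mitochondrial and salivary gland genes called 314 genes in all and 4 CDK1 regulators. With 1 pool left out, calls ran from 0 to 4607 over all genes, from 0 to 7 for the 10 genes, from 0 to 34 for other mitotic genes, from 0 to 10 for CDK1 regulators, from 0 to 6 for the complex and from 0 to 7 for the transcription factors. The lowest values came without Charme WT pool 1 or 3, and the 4607 without Charme KO pool 2. The causes were not tested.

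The replicate block alone called 4 of the 10 genes, losing Ccnb2 (log2 fold change 0.96, adjusted p = 0.107), and 210 genes in all. The deviations of same-numbered pools correlated at 0.137 and 0.0778, and 2 pairs are too few to show whether the numbers pair the pools. With the block and the correction together Ccnb2 (0.77, adjusted p = 0.199) and Cdc25c (1.31, adjusted p = 0.125) were not called. With 2 Charme KO pools, a missed call does not show equal levels.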
